A study of Saccharomyces cerevisiae with 40 samples.

Results

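The genes described here are 10 genes of Saccharomyces cerevisiae that serve heme or the switch between aerobic and hypoxic growth: ROX1, ANB1, HYP2, COX5A, COX5B, CYC7, HEM13, HMX1, AAC3, and YHB1. They were chosen by name for what they are known to do, and all 10 were found among the 7125 named genes of each deposited table. The tables come from ChIP-exo, in which chromatin pulled down with a tagged transcription factor (TF) is trimmed by an exonuclease up to the cross-linked protein. 5 TFs, Ino2, Ino4, Hap1, Oaf1, and Pip2, were each mapped in duplicate chemostats under 4 conditions, 40 samples altogether. Every strain came from CEN.PK 113-5D and carried a C-terminal CBP-ProtA tag on the mapped TF, so no untagged strain enters the comparisons. By the labels, N-lim cultures (limited by nitrogen) received 6% (w/v) glucose, Et-lim cultures 0.5% ethanol, Ox,Glu-lim cultures (limited by oxygen and glucose) 1% glucose, and Glu-lim cultures 0.75% glucose. Growth was fermentative at N-lim and Ox,Glu-lim and respiratory at Et-lim and Glu-lim, and Tween 80 and ergosterol were added to the medium of Ox,Glu-lim.

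Heme is made only when oxygen is present, and yeast reads it as a sign of oxygen. Hap1 is a zinc cluster protein that binds DNA at CGG triplets and, with heme, activates genes of respiration and oxygen defense. One of the genes it activates is ROX1, which encodes a repressor that keeps hypoxic genes silent in air. Several proteins are encoded by a pair of isoform genes, 1 used in air and 1 used when oxygen is scarce. HYP2 and ANB1 encode such a pair of forms of the translation factor eIF5A, and COX5A and COX5B encode alternative forms of subunit 5 of cytochrome c oxidase. CYC7 encodes the hypoxic cytochrome c beside the aerobic CYC1, and AAC3 the hypoxic ADP/ATP carrier beside PET9. HEM13 encodes coproporphyrinogen oxidase, a heme synthetic enzyme that consumes oxygen, HMX1 encodes heme oxygenase, which breaks heme down, and YHB1 encodes flavohemoglobin, which removes nitric oxide.

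The tables list for each gene, TF, and condition at most 1 binding event, the highest of those assigned to that gene within 1,200 bp, with its position, its log2 of signal over noise, log2(S/N), and a short sequence (k-mer) where the event caller GEM found one. Only events with log2(S/N) above 1 are listed. The duplicates were pooled by the authors, so each value below stands alone without a spread between replicates, and no difference between values was tested. The depth of the libraries is unknown. A gene without a listed event can have a signal under the threshold, a signal assigned elsewhere, a signal lost after read trimming, or none. The paper gives Hap1 at ERG27 as an example of such a loss. Over all genes the listed distances ran from 101 to 1199 bp, so an event closer than 101 bp to a gene is not listed for it.

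The sequences under the Hap1 events show what these sites have in common and where they differ. They were read from the RefSeq copy of genome build R64, 5′ to 3′, in windows of 29 bases centered on an event, with the strand given for each. For HYP2 (chrV:85243-85271, plus strand, event at Glu-lim) and for the event shared by ANB1 and CYC1 (chrX:525995-526023, plus strand, Et-lim), GEM gave no k-mer and capitals mark CGG and CCG triplets. For ROX1 (chrXVI:679142-679170, plus strand, Glu-lim), COX5A (chrXIV:531585-531613, plus strand, Glu-lim), CYC7 (chrV:80205-80233, minus strand, Glu-lim), HMX1 (chrXII:553907-553935, minus strand, Glu-lim), and YHB1 (chrVII:959433-959461, plus strand, Ox,Glu-lim), capitals mark the k-mer listed by GEM, on either strand. COX5B had no event, and for contrast 30 bases of its promoter (chrIX:154946-154975, plus strand) are shown with capitals on a match to CCGATA, read on the other strand as TATCGG.
HYP2: gaggggccaaggCCGGtaaaattctgcaa
ANB1 and CYC1: ggCCGGggtttaCGGacgatggcagaaga
ROX1: gatcttcggcTCGGCCGAcaaatcccctg
COX5A: ccctacgttttgcgCCGATAcaagcggcg
CYC7: tcaaagctaatagCGATAAtagcgagggc
HMX1: ggtcggcgtTATCGGaccgtggaatttga
YHB1: gttggatcctccggCCGATAtaacgtatt
COX5B: ttgtcattattaTATCGGcatgacactcac

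In the windows shown, COX5A, HMX1, and YHB1 carried the same core, CCGATA, directly at the event. This depended on the condition for HMX1 and YHB1. The YHB1 peak lay 16 bp from CCGATA at Glu-lim and 14 bp at Et-lim, and the HMX1 peak 77 bp at Et-lim. The windows of the 3 genes with the highest Hap1 values, HYP2, ROX1, and ANB1 with CYC1, held no CCGATA. In ROX1 the listed k-mer GGCCGA and its reverse complement overlapped in a palindrome. For CYC7 the k-mer CGATAA was listed and the window held no CGG triplet.

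Hap1 was listed for 7 of the 10 genes: ROX1, ANB1, HYP2, COX5A, CYC7, HMX1, and YHB1. Over all genes 6.65% had a Hap1 event in some condition. No Hap1 event was listed for COX5B, HEM13, or AAC3 under any condition. By condition, Hap1 was listed for 4 of the 10 genes at N-lim, where 0.73% of all genes were listed, for 5 at Et-lim (2.48% of all genes), for 6 at Ox,Glu-lim (3.51%), and for 7 at Glu-lim (5.68%). HYP2, ANB1, and HMX1 were listed in every condition, which held for 34 genes or 0.477% of all genes. The genes were chosen with earlier results of these data known, so these shares describe the genes and do not test them.

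**Figure D1:**
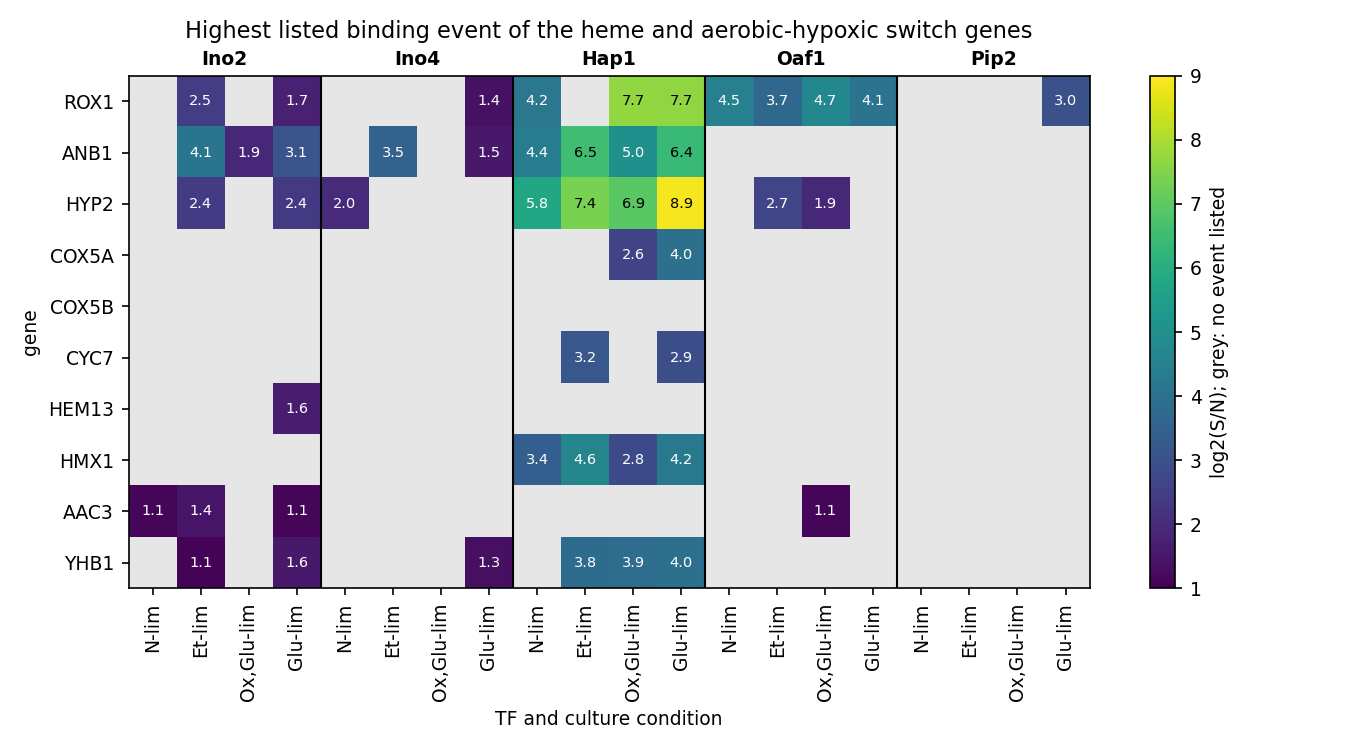
Highest listed event of each of the 10 genes (rows) for each TF and culture condition (columns); color and printed number give log2(S/N), and grey means that no event was listed. The highest values are those of Hap1 on HYP2 (8.90 at Glu-lim) and ROX1 (7.69 at Ox,Glu-lim), and the row of COX5B is empty.

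HYP2 (YEL034W, V:85676-86149, plus strand) had the highest Hap1 values of the 10 genes except under Ox,Glu-lim. Its log2(S/N) was 8.90 at Glu-lim, 6.94 at Ox,Glu-lim, 7.39 at Et-lim, and 5.77 at N-lim. Among the distinct Hap1 events of each condition this event ranked 1 of 284 at Glu-lim, 2 of 181 at Ox,Glu-lim, 2 of 126 at Et-lim, and 1 of 33 at N-lim. The peak stayed within 13 bp across conditions, at 85245 under N-lim and Et-lim, 85258 under Ox,Glu-lim, and 85257 under Glu-lim. This is 418 to 431 bp upstream of the start codon of HYP2. The same event was listed for ANP1, whose start lies 694 to 707 bp away, so HYP2 is the nearer of the pair. By the R64 annotation all 9 events of HYP2 lay inside a short gene on the other strand, UTR5 (YEL035C, V:85045-85545), for which no event of any TF was listed. In the window shown above the peaks at Glu-lim and Ox,Glu-lim lie inside a single CCGG, whereas the peak at N-lim and Et-lim lies outside it. Over the 4 conditions the nearest CCGATA lies 76 to 89 bp from the peak. At Ox,Glu-lim a further Hap1 event, with log2(S/N) of 2.18, lay only 77 bp upstream of the start of HYP2 and was listed for MTC7 instead.

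ROX1 (YPR065W, XVI:679693-680799, plus strand) had the highest Hap1 value of any gene at Ox,Glu-lim and was not listed at Et-lim. Its Hap1 log2(S/N) was 7.68 at Glu-lim, 7.69 at Ox,Glu-lim, and 4.16 at N-lim. The values under glucose limitation with and without oxygen limitation were thus 0.01 apart, and that at N-lim was 3.52 below Glu-lim. The peaks lay at 679156, 679160, and 679158 in that order, 533 to 537 bp upstream of the start. The event was also listed for YPR063C, from which it is farther. All 11 events of ROX1, whichever the TF, lay inside the short annotated gene YPR064W (XVI:678951-679370, plus strand), for which none was listed. Among the 26 genes with a Hap1 log2(S/N) of at least 6 at Glu-lim, which hold 18 distinct events, 3 had no listed event at Et-lim: ROX1, YPR063C with the same event, and HAP4. Whether the ROX1 event fell under the threshold at Et-lim or was lost in processing was not tested.

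ROX1 was also the only one of the 10 genes with an event of each of the 5 TFs, which 35 genes or 0.491% of all genes had. Oaf1, an activator of fatty acid oxidation genes, was listed on ROX1 in all 4 conditions. Its log2(S/N) was 4.06 at Glu-lim, 4.73 at Ox,Glu-lim, 3.69 at Et-lim, and 4.50 at N-lim, so unlike Hap1 it had a value at Et-lim. Over all genes Oaf1 was listed for 6.34%, and of the 10 genes for 3. Pip2, the partner of Oaf1, was listed on ROX1 at Glu-lim alone, with 2.99, and on no other of the 10 genes (3.3% of all genes). At Glu-lim the peaks of Hap1, Oaf1, and Pip2 lay at 679156, 679155, and 679152, all within 4 bp, inside the palindrome of the ROX1 window above. At Ox,Glu-lim Hap1 and Oaf1 were 6 bp apart, and at N-lim 133 bp, because the Oaf1 peak was then at 679025. The k-mer CGGCC listed for Oaf1 at Glu-lim is part of the palindrome. Ino2 and Ino4 events on ROX1 lay at another place, 678962, 731 bp upstream of the start, with 2.46 at Et-lim and 1.74 at Glu-lim for Ino2 and 1.37 at Glu-lim for Ino4.

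**Figure D2:**
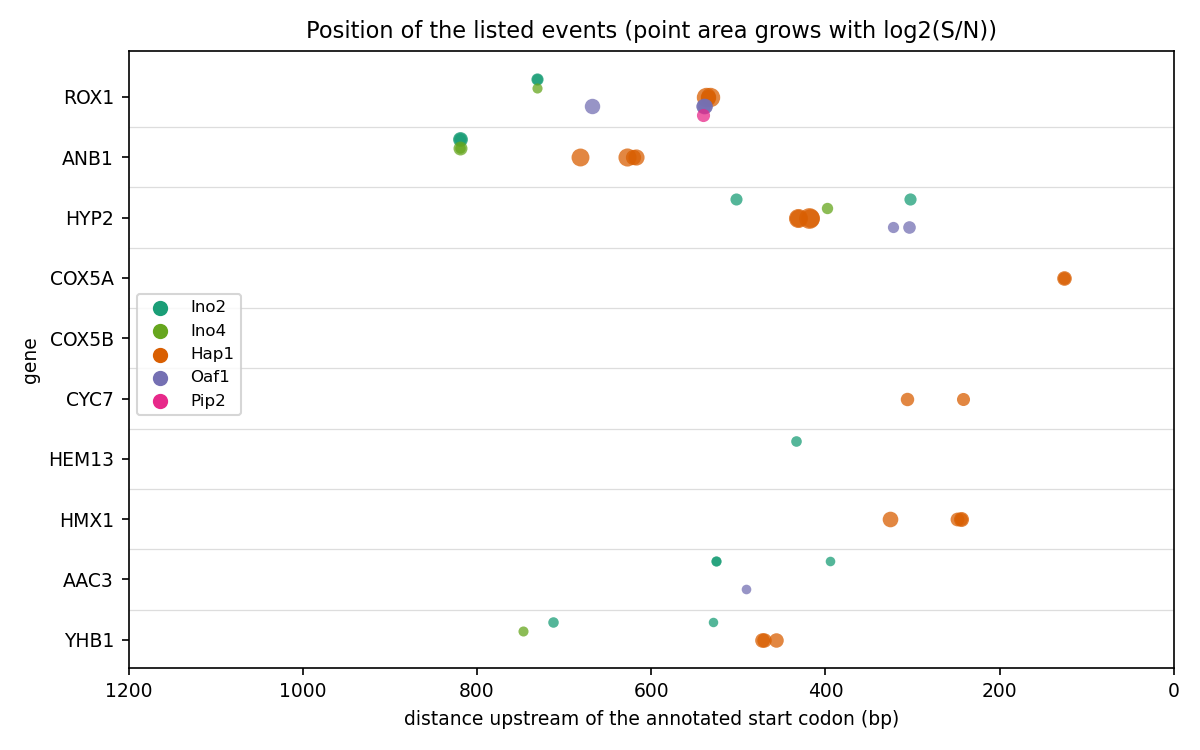
Distance of each listed event from the start codon of the gene (x axis, bp upstream), with color for the TF and point area growing with log2(S/N); points of 1 gene and TF are the 4 conditions. On ROX1 the events of Hap1 and Pip2 and 3 of the 4 Oaf1 events lie between 533 and 541 bp upstream, whereas those of Ino2 and Ino4 lie at 731 bp.

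ANB1 (YJR047C, X:524908-525381, minus strand) shares its upstream region with the divergent CYC1 (YJR048W, X:526335-526664, plus strand), and every event listed for ANB1 was listed for CYC1 too and was nearer to CYC1. The Hap1 log2(S/N) was 6.39 at Glu-lim, 5.02 at Ox,Glu-lim, 6.54 at Et-lim, and 4.35 at N-lim. Both respiratory conditions thus had values above both fermentative ones. The event ranked 13 of 284, 15 of 181, 7 of 126, and 5 of 33 distinct Hap1 events in that order of conditions. The Et-lim peak was at 526009, the N-lim peak at 526002, and the Ox,Glu-lim peak at 525999, 326 to 336 bp upstream of CYC1 and 618 to 628 bp upstream of ANB1. These 3 peaks lie within the window printed above, which holds a CCGG and a further CGG. At Glu-lim the peak was at 526063, 54 to 64 bp closer to CYC1. When each event was counted for its nearest gene only, or when events had to lie within 600 bp, ANB1 had no Hap1 event.

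The isoform pairs put these values side by side. In each of 5 pairs (HYP2 and ANB1, COX5A and COX5B, CYC1 and CYC7, PET9 and AAC3, and HMG1 and HMG2, the last encoding HMG-CoA reductase), Hap1 was listed for the aerobic gene. This was 5 of 5 aerobic genes against 2 of 5 hypoxic genes, ANB1 and CYC7, where 6.65% of all genes were listed. By condition the aerobic genes numbered 5 at Glu-lim, 5 at Ox,Glu-lim, 3 at Et-lim, and 2 at N-lim, and the hypoxic genes 2, 1, 2, and 1, against 5.68%, 3.51%, 2.48%, and 0.73% of all genes. With events within 600 bp, or with the nearest gene only, the hypoxic genes were 1 of 5, CYC7.

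The value of HYP2 was above that of ANB1 in all 4 conditions. The difference in log2(S/N) was 2.51 at Glu-lim, 1.93 at Ox,Glu-lim, 0.85 at Et-lim, and 1.42 at N-lim, which are S/N ratios of 5.70, 3.80, 1.80, and 2.68 in that order. Each ANB1 value here is that of the event shared with the aerobic CYC1 and nearer to CYC1. With events within 600 bp, or with the nearest gene only, ANB1 had no Hap1 event and this difference does not exist. CYC1 was above CYC7 where both were listed, by 3.37 at Et-lim and 3.45 at Glu-lim. In the other pairs there is no difference to give, since the hypoxic gene was not listed. HMG1 had Hap1 values of 6.63 at Glu-lim, 5.40 at Ox,Glu-lim, and 5.51 at Et-lim, and PET9 of 3.48 at Glu-lim and 3.07 at Ox,Glu-lim.

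**Figure D3:**
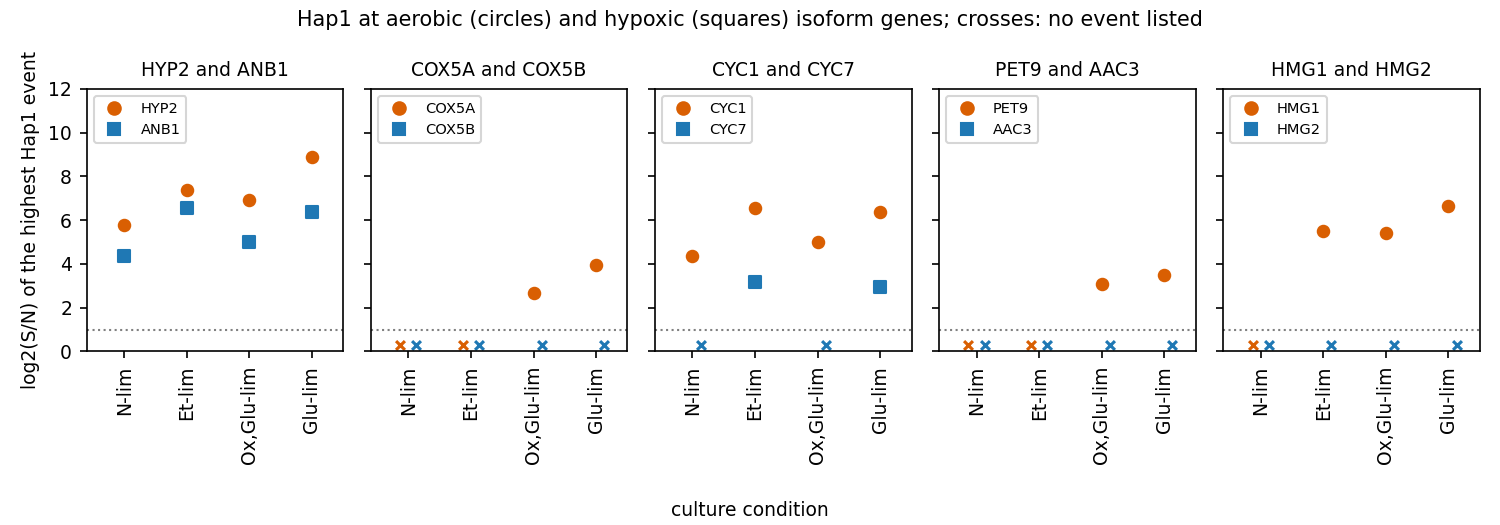
Hap1 log2(S/N) (y axis) of the aerobic gene (circle) and the hypoxic gene (square) of 5 isoform pairs in each condition (x axis); crosses stand for no listed event and the dotted line is the authors' threshold of 1. ANB1 and CYC1 show the same values because they share 1 event, and COX5B, AAC3, and HMG2 have crosses only.

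COX5A (YNL052W, XIV:531725-532186, plus strand) had a Hap1 event of 3.96 at Glu-lim and 2.65 at Ox,Glu-lim. Both peaks were at 531599, 126 bp upstream of the start, and the listed k-mer was CCGATA or its reverse complement. No other gene shared the event, and no other TF was listed for COX5A. COX5B (YIL111W, IX:155222-155765, plus strand) had no event in any of its 20 combinations of TF and condition. Its promoter holds the same CCGATA core, starting 264 bp upstream of the start codon, as printed above. The nearest Hap1 event listed for any gene on that chromosome lay 22521 bp from the start of COX5B.

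CYC7 (YEL039C, V:79636-79977, minus strand) was listed for Hap1 in the respiratory conditions alone, with 2.94 at Glu-lim and 3.17 at Et-lim. The peaks were at 80219 and 80283, 242 and 306 bp upstream. Both were also listed for the divergent gene UTR4, which was the nearer gene at Et-lim, whereas CYC7 was nearer at Glu-lim. The events ranked 115 of 284 and 75 of 126, near the middle of the list. No other TF was listed for CYC7.

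HEM13 (YDR044W, IV:546642-547628, plus strand) had 1 listed event, of Ino2 at Glu-lim, which lay 434 bp upstream and had a log2(S/N) of 1.61. The nearest Hap1 event at Glu-lim lay 2830 bp upstream of HEM13, beyond the limit of 1,200 bp, and was listed for NRG1 with 2.14. Of the 8 genes of heme synthesis, HEM1, HEM2, HEM3, HEM4, HEM12, HEM13, HEM14, and HEM15, 0 had a Hap1 event in any condition. With 6.65% of all genes listed, 0 of 8 is near the background. Ino2 was listed for 3 of the 8 (11.7% of all genes). Beside the HEM13 value these were 1.05 for HEM1 at Et-lim and 1.09 for HEM12 at N-lim, both close to the threshold. The HEM1 event was nearer to COX20 and the HEM12 event nearer to BAP3.

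HMX1 (YLR205C, XII:552724-553677, minus strand) was listed for Hap1 alone, with values from 2.81 at Ox,Glu-lim to 4.64 at Et-lim. The event ranked 57 of 284 at Glu-lim, 107 of 181 at Ox,Glu-lim, 24 of 126 at Et-lim, and 18 of 33 at N-lim, in lists of very different length. Its event was next to the only match among the 10 promoters to the long Hap1 motif reported before the study. In this motif a pair of CCG triplets frames a TA. It is held by 0.532% of all promoters within 600 bp. The peak was 71 bp outside this match at Et-lim, where the value was highest, and inside it elsewhere. At Ox,Glu-lim ENT2, the divergent gene, had another event, 2.82, that lay 78 bp upstream of HMX1 and was not listed for it, although the event listed for HMX1 was lower, 2.81.

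YHB1 (YGR234W, VII:959904-961103, plus strand) had nearly level Hap1 values of 3.95 at Glu-lim, 3.86 at Ox,Glu-lim, and 3.83 at Et-lim, and was not listed at N-lim. The peaks, at 959431, 959447, and 959433 in that order, were 457 to 473 bp upstream, and that of Ox,Glu-lim was at the first base of CCGATA. Ino2 was listed with 1.08 at Et-lim and 1.56 at Glu-lim and Ino4 with 1.34 at Glu-lim, at 3 other positions. Of a preset list of 7 genes that encode hemoproteins or heme oxygenase, Hap1 was listed for 5 (6.65% of all genes): YHB1, HMX1, the catalase gene CTT1, the lactate dehydrogenase gene CYB2, and the cytochrome b5 gene CYB5. The peroxisomal catalase gene CTA1 and the cytochrome c peroxidase gene CCP1 had none.

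AAC3 (YBR085W, II:415983-416906, plus strand) had no Hap1 event and values near the threshold for Ino2 (1.13 at N-lim, 1.44 at Et-lim, and 1.12 at Glu-lim) and Oaf1 (1.14 at Ox,Glu-lim). All 4 events were nearer to RPL19A, a ribosomal protein gene. The nearest Hap1 event at Glu-lim was 7333 bp upstream, listed for TEC1.

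**Figure D4:**
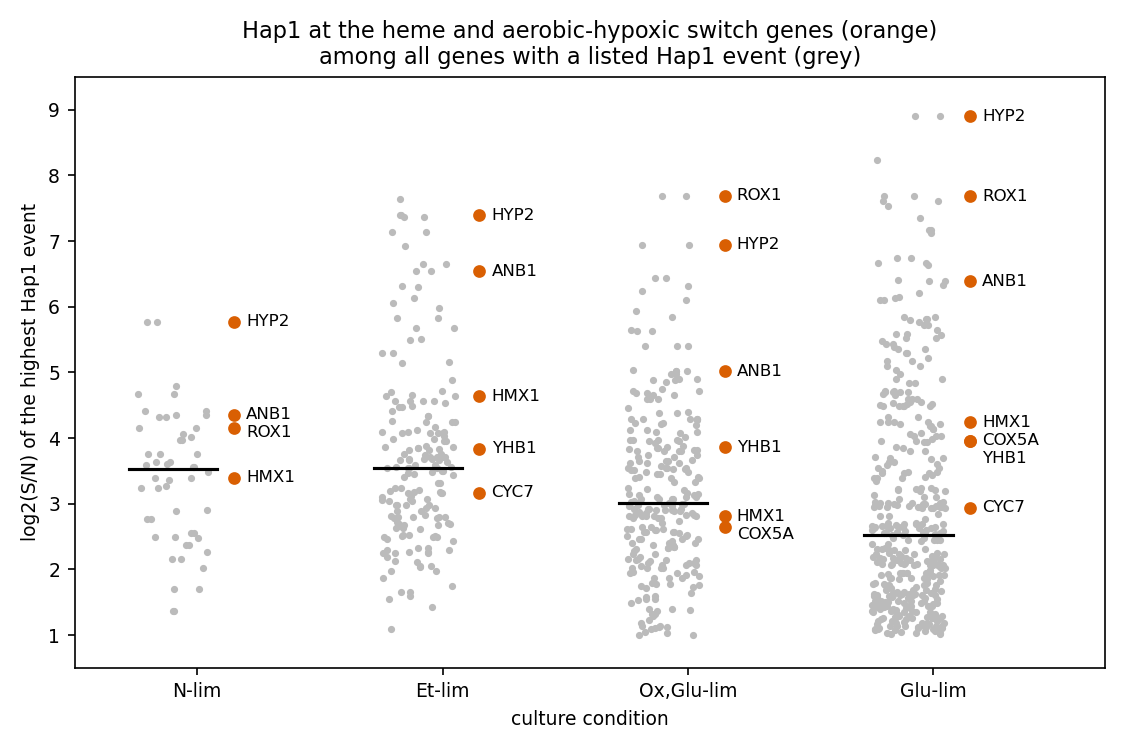
Hap1 log2(S/N) (y axis) in each condition (x axis) for every gene with a listed Hap1 event (grey points, spread sideways for clarity, with the median as a line) and for the genes described here (orange, named). HYP2 is at the top at N-lim and Glu-lim and ROX1 at Ox,Glu-lim, whereas CYC7 lies below the median at Et-lim.

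Between conditions, the Hap1 values of the 10 genes were set against those at Glu-lim where both were listed. At N-lim the 4 listed genes were all lower than at Glu-lim, with a median difference of -2.58 in log2(S/N). Over all 44 genes listed in both, 90.9% were lower and the median was -2.08. At Ox,Glu-lim 5 of 6 genes were lower, with a median of -1.34, against 54.3% lower and a median of -0.14 over 199 genes. ROX1 was the exception among the 6, with a difference of 0.01, and HYP2 had the lowest, -1.96. YHB1, counted among the lower genes, was nearly level with -0.09. The ANB1 peak lay 64 bp from that at Glu-lim. At Et-lim 2 of 5 genes were lower, with a median of 0.15, against 60.5% lower and a median of -0.26 over 157 genes. HYP2 was the lowest of the 5 again, with -1.51, and ANB1 (0.15), CYC7 (0.23), and HMX1 (0.40) were higher than at Glu-lim. The Et-lim peaks of ANB1, CYC7, and HMX1 lay 54, 64, and 82 bp from those at Glu-lim. Their higher values are therefore not values of the same position. The peaks of HYP2 and YHB1, which were lower, lay 12 and 2 bp from those at Glu-lim. The median Hap1 value of all listed genes was 2.52 at Glu-lim, 3.01 at Ox,Glu-lim, 3.54 at Et-lim, and 3.53 at N-lim, while the number of listed genes was 405, 250, 177, and 52. After these medians were subtracted, all differences of the 10 genes from Glu-lim were below 0, as were 73.9% of those over all genes at Ox,Glu-lim, 86.6% at Et-lim, and 100% at N-lim, so this sign follows the scaling of all genes.

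Genes with Hap1 values most like those of the genes listed in all 4 conditions were sought by Euclidean distance over the 4 values, among 32 genes with other events. For ANB1 they were CIN1 and PUT4, which share an event (0.80), and QCR6 (0.98), encoding a subunit of the cytochrome bc1 complex. For HMX1 they were COX6 (1.14), encoding another subunit of cytochrome c oxidase, and ERG3 and SPT8 (1.44). For HYP2 none was as close, with 2.69 for HOR7 and 2.75 for CYT1, encoding cytochrome c1, and for YNG1 with the same event.

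Ino2 and Ino4, the basic helix-loop-helix activators of phospholipid genes, had mostly low values on these genes. Ino2 was listed for 6 of the 10 (ROX1, ANB1, HYP2, HEM13, AAC3, and YHB1), where 11.7% of all genes were listed, and Ino4 for 4 (ROX1, ANB1, HYP2, and YHB1), where 9.46% were. The highest values were on the ANB1 and CYC1 region. Ino2 had 3.10 at Glu-lim, 1.89 at Ox,Glu-lim, and 4.12 at Et-lim, and Ino4 had 3.51 at Et-lim and 1.54 at Glu-lim. All 5 peaks were at 526200 or 526201, 134 or 135 bp upstream of CYC1 and 819 or 820 bp upstream of ANB1. They lay on a CACATGC, the Ino2 motif, which 4.42% of promoters held within 600 bp. It is shown in 29 bases (chrX:526187-526215, plus strand) with the listed k-mer, its reverse complement, in capitals.
Ino2 and Ino4 at CYC1: atatggcatGCATGTGctctgtatgtata

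With log2(S/N) above 2, Ino2 was listed for 3 of the 10 genes (6.86% of all genes) and Ino4 for 1 (5.95%). On HYP2 Ino2 had 2.43 at Et-lim and 2.37 at Glu-lim at places 200 bp apart, Ino4 had 1.99 at N-lim, and Oaf1 had 2.68 at Et-lim and 1.91 at Ox,Glu-lim. The Ino2 and Oaf1 peaks at Et-lim were 1 bp apart, at 85373 and 85372, and 127 bp or more from that of Hap1. In all, 48 of the 200 combinations of gene, TF, and condition had a listed event, 22 of them of Hap1. Of all genes, 0.575% (Pip2 at Ox,Glu-lim) to 10.2% (Ino2 at Et-lim) were listed for a TF in a condition. Of the 48, 41 were also listed for a neighboring gene. All 48 lay upstream of the start codon, at 126 to 820 bp, and 28 lay between genes. In 30 cases a pair of TFs was listed for 1 gene in 1 condition, and in 8 of these the peaks were within 10 bp. The 8 include the heterodimer partners Ino2 with Ino4 and Oaf1 with Pip2. For shared listing and for pairs no share over all genes is given, so these counts only describe the 10 genes.

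The known motifs were searched exactly, on both strands, in windows reaching 20 bp to each side of the distinct Hap1 events. A match counted only where all of it lay in the window. The CCGATA that starts 16 bp from the YHB1 peak at Glu-lim runs past the window and was not counted. CCGATA was found at 2 of 7 events of these genes at Glu-lim, 3 of 6 at Ox,Glu-lim, 1 of 5 at Et-lim, and 1 of 4 at N-lim, against 25.4%, 42%, 15.9%, and 9.09% of all distinct Hap1 events. The long motif met above in HMX1 was found at that gene alone. The long motif that the study itself found at N-lim and Et-lim, with a single CCG, was at 0 of these events. In windows of 600 bp upstream of the start codon, CCGATA was present in 6 of the 10 genes (ROX1, HYP2, COX5A, COX5B, HMX1, and YHB1) and in 13.1% of 6018 promoters. Of the 789 promoters with it 18.4% had a Hap1 event, and of the 5229 without it 5.6%. As CCGATA was derived from the same Hap1 events, this difference is no test of CCGATA. ANB1 and CYC7 had a Hap1 event without it and COX5B had it without an event. ATTGTT, the core of sites bound by Rox1, was present in 54.9% of promoters and in 8 of the 10. ANB1 had 4 matches, as many as or more than which 0.864% of promoters held, and COX5B and HEM13 had 3 each (4.84% of promoters). HYP2 and CYC7 had none. A match is a feature of the letters and does not show binding.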

How the data were processed

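All values come from the 5 deposited tables, 1 for each TF. The log2 values of S/N were made by the authors, who aligned reads to R64-2-1 using Bowtie2. Then 70 bases were trimmed from the 3′ end, GEM called events over the duplicates, and events with log2(S/N) above 1 were kept. The deposited positions and k-mers with their strands, from GEM, and distances are other values. The authors assigned events to genes within 1,200 bp with BEDTools and kept the highest event assigned to each gene; no listed distance is under 101 bp. The labels also name SAMtools, and tool versions are not given in the sources used here. For Ox,Glu-lim the labels and the methods of the study give different glucose concentrations, and the label is printed. Reads came from CEN.PK strains and the reference is S288C. Depth is unknown, so no interval could be given.

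Distances in the text were computed from R64 start codons and were within 1 bp of the deposited ones for all 48 entries. Python 3.11.15 with NumPy 2.4.6 was used. A gene counted as bound when an event was listed. With 1 pooled value in each cell no test was run. Named are all 10 genes, genes sharing their events, isoform partners, listed genes of the preset lists, and the 3 genes with the most similar Hap1 values. Genes and lists were chosen with earlier results of these data known. In 200 simulated windows made free of the motif, the search recovered 80 of 80 exact copies planted in them. This checks the code and says nothing about real binding sites. Alternatives were thresholds of 1.5 and 2, a limit of 600 bp, the nearest gene only, centring on condition medians, unlisted genes set to 1, and a motif window of 40 bp.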

Additional observations from a re-analysis of the deposited data

How the results depend on the processing

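Hap1 was listed for 7 of the 10 genes at thresholds of 1.5 and 2 and for 6 with the 600-bp limit or the nearest gene only, and 0 of 8 heme synthesis genes were listed under each of these 4 settings. Of 90 alternative values, 74 stayed close to those given above, 14 moved, and 2 changed sign. A count was called close within a factor of 1.5, so Ino2 going from 6 to 4 genes with the 600-bp limit is among the 74. A difference was called close only if it was unchanged. The count of the 10 genes moved from 6 to 3 for Ino2 with a threshold of 2 or the nearest gene only, and from 4 to 2, 1, 1, and 2 for Ino4 with thresholds of 1.5 and 2, the 600-bp limit, and the nearest gene only. With the nearest gene only, Hap1 at Et-lim was listed for 3 of the 10 genes instead of 5, and the hypoxic isoforms fell to 1, as with the 600-bp limit. CCGATA was within 40 bp of 2 of the 4 events at N-lim. The median Hap1 difference from Glu-lim was, after centring, -1.83 at Ox,Glu-lim and -3.59 at N-lim, and -1.37 and -2.95 with unlisted genes set to 1. At Et-lim it changed sign, to -0.86 after centring and -0.12 with unlisted genes set to 1, because centring subtracts a shift of the medians of 1.01 and the other adds ROX1 and COX5A. The threshold, distance, and nearest-gene settings remove events by construction. No paired analysis was possible because the deposited values pool the duplicates, and for the same reason leaving out each replicate was not run.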

Other observations

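Other regulators of the oxygen response had events that belong to no comparison above. MOT3, encoding another repressor of hypoxic genes, had Hap1 values of 6.14 at Glu-lim, 6.32 at Ox,Glu-lim, 6.13 at Et-lim, and 3.49 at N-lim, so unlike ROX1 it was listed at Et-lim. Ino2 had 7.52 at Et-lim and 7.46 at Glu-lim on MOT3, ranks 4 of 505 and 6 of 444 distinct events. HAP1 itself was listed for Hap1 at Et-lim (3.76) and Glu-lim (4.32), and HAP4, encoding the activator of respiratory genes, at Glu-lim alone (6.41). In all, 6 of 12 regulators had a Hap1 event (6.65% of all genes), the others being CYC8 and ECM22. UPC2, encoding an activator of sterol and anaerobic genes, had no Hap1 event. Its Ino4 value was 5.32 at Ox,Glu-lim, above its 2.06 at N-lim and 2.83 at Glu-lim. Ino2 did not differ in this way on UPC2, with 3.12 at both Ox,Glu-lim and Glu-lim.

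Of 9 nuclear genes of cytochrome c oxidase subunits, 6 had a Hap1 event (6.65% of all genes). With log2(S/N) above 2 it was 4 of the 9 (4.66% of all genes). COX4 had 1.20 at Glu-lim alone, and COX12 had 1.75 at Et-lim and 1.11 at Ox,Glu-lim. Events of the other TFs, listed for 3.3% to 11.7% of all genes, were found on 0 of the 9. COX6 had 4.60 at Glu-lim, 3.84 at Ox,Glu-lim, 4.41 at Et-lim, and 3.61 at N-lim, the highest of the 9 except under Ox,Glu-lim, where COX7 had 4.21. Of 6 anaerobic cell wall mannoprotein genes 0 had a Hap1 event, which is near the 6.65% of all genes. DAN1 had events at Ox,Glu-lim alone, of Ino2 (1.96) and Ino4 (2.97) at CACGTGC, 1 bp apart. HEM14, encoding protoporphyrinogen oxidase, had Pip2 values of 2.68 at N-lim, 3.92 at Et-lim, and 4.43 at Glu-lim. These events lay past the 3′ end of HEM14, 1757 to 1886 bp downstream of its start, and are not in its promoter. That at Et-lim was shared with FAA2, which encodes an acyl-CoA synthetase. HEM15, encoding ferrochelatase, had an Ino4 value of 2.30 at Ox,Glu-lim.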
